A study of Mus musculus with 19 samples.

Results

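The genes described here are 32 textbook markers of glia and of progenitor cells, followed through cultures of mouse hippocampal neurons. They were the rows of the expression files whose gene name equalled 1 of 32 given names, and all 32 were found among 24058 genes. Of the 32 genes, 13 mark astrocytes, 8 mark neural progenitors or cycling cells, and 11 mark the oligodendrocyte lineage, 7 of them precursors and 4 of them myelin. The cultures came from hippocampus at embryonic day 17 and were grown for 10 days in vitro. Some were left untreated, some received tetrodotoxin (TTX, which blocks voltage-gated sodium channels and so action potentials), and some received Bic/4AP for 3 h, that is bicuculline, which blocks GABA-A receptors, with 4-aminopyridine, which blocks potassium channels. How long TTX was applied is not stated in these sources. ICR mice gave 3 RNA-seq libraries per treatment, C57BL/6 mice gave 1 bisulfite library per treatment, and ChIP-seq covered H3K27ac in 2 untreated and 2 Bic/4AP samples and H3K4me1 in 2 untreated samples, all from ICR mice. The labels name no genetic change in any group. The labels name the cells only as cultured hippocampal neurons, with no sort, so every value is a mean over whatever cells each dish held, and the markers are read here as a measure of glia and progenitors beside the neurons.

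Astrocytes clear glutamate and potassium around synapses, supply lipids and metabolites, and are born from the same radial glia that earlier make neurons. Oligodendrocyte precursors are a dividing population that carries PDGF receptor alpha and the NG2 proteoglycan, and their progeny switch on myelin genes. Nestin, vimentin and SOX2 mark neural progenitors, but immature and reactive astrocytes express them too, so in a culture of embryonic cells these classes share genes.

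The recovered depth was 9.68 to 12.6 M reads in the TTX libraries, 5.63 to 9.97 M in the untreated libraries and 4.34 to 4.59 M in the Bic/4AP libraries. In RPKM, which divides reads by gene length in kb and by depth in M, a single read over 1 kb counted for 0.0791 to 0.230. The untreated libraries stood apart in their content. The summed level of 18 choroid plexus genes was 509 to 758 RPKM untreated against 25.5 to 35.8 with TTX and 35.2 to 41.4 with Bic/4AP. All 18 were called lower in both treated groups, beside 42.5% of all genes with Bic/4AP and 23.5% with TTX. Kcnj13, Kcne2, Prlr, Slc4a5, Tmem72, Trpv4 and Otx2 reached 1 RPKM in the untreated libraries alone. For these genes a fall was built into their passing the filter given below. Small nucleolar and Cajal body RNAs, which have no poly(A) tail, summed over 119 rows to 1408 to 2031 RPKM untreated against 252 to 325 with TTX and 248 to 316 with Bic/4AP. The part of either difference in the marker results was not tested. It touches each comparison with untreated libraries, whereas Bic/4AP against TTX holds no untreated library. Nothing in the labels ties the replicate numbers to separate dishes or animals. Each p-value therefore reflects variation among the 3 libraries within each group, pooled over the groups and moderated toward that of genes at similar levels. That variation may be technical. In bulk RNA, fewer cells of a type and less RNA per cell cannot be told apart.

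Levels below are RPKM, given per library in the order of the replicate numbers or as mean ± SD with n = 3 libraries. Tests were made with limma on log2(RPKM + 1), adjusted by the Benjamini-Hochberg method over the 14801 genes that reached 1 RPKM in at least 3 of the 9 libraries. A gene is called at an adjusted p under 0.05. The median gene moved by -0.12 on the log2 scale in Bic/4AP against untreated, by 0.13 in TTX against untreated and by -0.33 in Bic/4AP against TTX, so each log2 change of a marker on the deposited scale is given relative to that median, while the calls and p-values use the deposited scale. Because these shifts depend on scaling, a second count gives the genes called the same way as deposited, after quantile normalization and after cyclic loess normalization. Of the 32 markers, 27 passed the filter. Hes5, Mki67, Sox10, Gpr17 and Mog did not, and are given as levels and reads only. Pdgfra and Mag passed the filter only through the untreated libraries, and Cspg4 only through the TTX libraries, so a difference in these 3 genes was built into their passing.

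**Figure D1:**
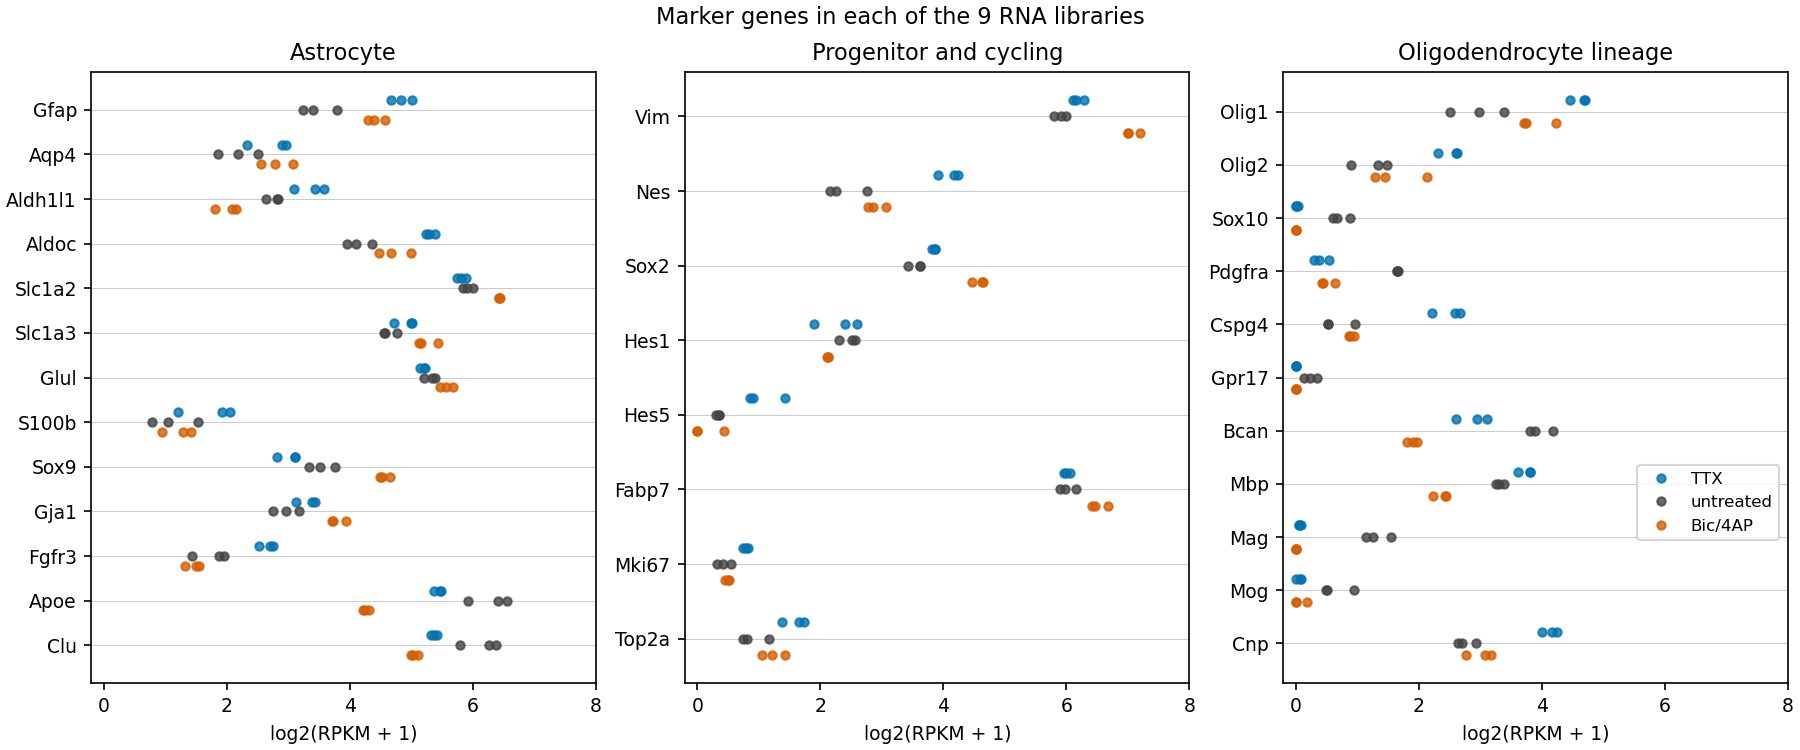
Level of each of the 32 markers in each RNA library, as log2(RPKM + 1), in 3 panels by cell class; every point is 1 library, blue for TTX, grey for untreated and orange for Bic/4AP. Vim, Fabp7 and Slc1a2 are among the highest markers in all 9 libraries, and Sox10, Gpr17, Mag and Mog are at or near 0 in the TTX and Bic/4AP libraries.

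The astrocyte markers did not move as a block. Under Bic/4AP against untreated libraries, 8 of 13 were called higher and 3 lower, where 29.6% of all genes were called higher and 42.5% lower. Under all 3 scalings 6 were higher and 2 lower, against 21.6% and 27.8% of all genes. Sox9, Gja1, Gfap, Slc1a3, Aqp4 and Aldoc were the 6 that were higher under all scalings, and Apoe and Clu the 2 that were lower. The median log2 change of the class was 0.51 as deposited, where the median of all genes was -0.12.

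Gfap encodes the intermediate filament protein that defines astrocytes in tissue. Its level was 31.4, 27.6 and 24.6 RPKM with TTX, 8.41, 12.8 and 9.54 untreated and 18.6, 20.0 and 22.7 with Bic/4AP. All 3 groups lay apart, with the untreated libraries lowest and the TTX libraries highest. The relative log2 change was 1.07 ± 0.133 (SE) for Bic/4AP against untreated (adjusted p = 4.77e-05) and 1.24 ± 0.133 for TTX against untreated (adjusted p = 6.31e-06). Gfap was also called lower with Bic/4AP than with TTX, but its relative change was only -0.10 (adjusted p = 0.0111), the sign turned to 0.09 after cyclic loess normalization, and the call was lost without TTX replicate 1 (adjusted p = 0.0559).

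Sox9, the transcription factor that starts and maintains the astrocyte programme, followed another order. Its level was 7.59, 7.59 and 6.08 RPKM with TTX, 9.08, 10.4 and 12.5 untreated and 21.5, 22.1 and 24.3 with Bic/4AP. The Bic/4AP libraries were highest and the TTX libraries lowest, with no overlap between any of the 3 groups. Sox9 rose by a relative log2 change of 1.15 ± 0.119 (SE) with Bic/4AP against untreated (adjusted p = 9.09e-06) and by 1.88 ± 0.119 against TTX (adjusted p = 2.5e-07), and it fell by 0.65 ± 0.119 with TTX against untreated (adjusted p = 0.00227). These calls held under all 3 scalings.

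Apoe and Clu, which encode the lipid carriers apolipoprotein E and clusterin, were highest untreated. Both are also made outside astrocytes, in choroid plexus epithelium among other cells. Apoe was 43.6, 40.3 and 43.2 RPKM with TTX, 84.1, 59.5 and 93.0 untreated and 17.5, 18.8 and 18.1 with Bic/4AP. The 3 groups lay apart. Apoe fell by a relative log2 change of 1.92 ± 0.124 (SE) with Bic/4AP against untreated (adjusted p = 4.86e-08), by 0.99 ± 0.124 with TTX against untreated (adjusted p = 0.0001) and by 0.85 ± 0.124 with Bic/4AP against TTX (adjusted p = 3.16e-06). The choroid plexus genes summed to 25.5 to 35.8 RPKM with TTX and 35.2 to 41.4 with Bic/4AP. Their part in the Apoe differences was not tested. Clu was 40.3 ± 1.39 with TTX, 70.7 ± 14.3 untreated and 31.9 ± 1.33 with Bic/4AP (SD, n = 3). Its relative log2 change was -0.98 ± 0.115 for Bic/4AP against untreated (adjusted p = 3.83e-06) and -0.90 ± 0.115 for TTX against untreated (adjusted p = 0.000123). Against TTX its Bic/4AP level was called lower on the deposited scale (adjusted p = 0.0211) while its relative change was 0.01, and that call was lost without TTX replicate 3, Bic/4AP replicate 1 or Bic/4AP replicate 2 (adjusted p 0.0512 to 0.0635). With all libraries it was also called lower after quantile (log2 change -0.35, adjusted p = 0.00176) and cyclic loess normalization (-0.57, adjusted p = 0.000899).

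Slc1a2 and Slc1a3 encode the glutamate transporters GLT-1 and GLAST, Glul encodes glutamine synthetase, Gja1 the gap junction protein connexin 43 and Aqp4 a water channel. Slc1a2, which some hippocampal neurons transcribe as well, was 52.5, 54.9 and 58.2 RPKM with TTX, 63.4, 56.6 and 59.3 untreated and 85.2, 85.1 and 86.2 with Bic/4AP. The TTX and untreated libraries overlapped, and the Bic/4AP libraries lay above both. The relative log2 change against untreated was 0.63 ± 0.0578 (SE; adjusted p = 7.43e-06), but after quantile and cyclic loess normalization it was 0.03 in both and the call was lost. Against TTX it was 0.96 ± 0.0578 (adjusted p = 1.13e-06), but only 0.08 and 0.06 after the same normalizations, where it was still called. Glul, at 46.6 ± 3.44 with Bic/4AP and 38.7 ± 2.41 untreated, lost its call in the same way, with log2 changes of 0.02 and 0.04. With TTX against untreated Glul was not called as deposited (adjusted p = 0.127). It was called lower there after quantile (log2 change -0.25, adjusted p = 0.0029) and cyclic loess normalization (-0.20, adjusted p = 0.0231). Slc1a3 was 29.2 ± 3.26 with TTX, 23.9 ± 2.13 untreated and 37.0 ± 4.69 with Bic/4AP, and its rise against untreated held under all scalings (relative log2 change 0.73 ± 0.1, adjusted p = 0.000175). Gja1 rose from 6.85 ± 1.16 to 13 ± 1.26 (relative log2 change 0.96 ± 0.132, adjusted p = 0.000114). Aqp4 rose from 3.60 ± 1.02 to 6.08 ± 1.28 (adjusted p = 0.0202), a call that was lost without untreated replicate 1 (adjusted p = 0.0877) or Bic/4AP replicate 3 (adjusted p = 0.0813).

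Aldh1l1, a folate enzyme used as a pan-astrocyte marker, Fgfr3, a growth factor receptor of radial glia and astrocytes, and Aldoc, the brain form of aldolase, were highest with TTX. Aldh1l1 was 11.0, 9.85 and 7.57 RPKM with TTX, 5.24, 6.05 and 6.10 untreated and 2.51, 3.25 and 3.44 with Bic/4AP. The 3 groups did not overlap, and Bic/4AP was lowest. Its relative log2 change was -1.03 ± 0.156 (SE) for Bic/4AP against TTX (adjusted p = 6.6e-06), and this held under all scalings. The fall against untreated, at -0.62 ± 0.156 (adjusted p = 0.000974), did not, since it was -0.10 and -0.23 after quantile and cyclic loess normalization. Fgfr3 was 5.33 ± 0.521 with TTX, 2.41 ± 0.626 untreated and 1.74 ± 0.226 with Bic/4AP, so it was higher with TTX than untreated (adjusted p = 0.00056) and lower with Bic/4AP than with TTX (adjusted p = 3.43e-05). Its difference between Bic/4AP and untreated was not called (adjusted p = 0.129) and turned positive after both normalizations. Aldoc was 38.6 ± 1.9 with TTX, 16.7 ± 2.57 untreated and 25.6 ± 4.87 with Bic/4AP, and all 3 of its differences were called under every scaling. S100b, a calcium-binding protein of astrocytes, rested on 7 to 66 reads per library and was called in no comparison on the deposited scale (adjusted p 0.0511 to 0.743). With TTX against untreated it was called higher after quantile (log2 change 0.79, adjusted p = 0.0192) and cyclic loess normalization (0.66, adjusted p = 0.0312).

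In TTX against untreated libraries 7 of the 13 astrocyte markers were called higher and 3 lower, beside 40.6% and 23.5% of all genes. Under all 3 scalings 4 were higher (Gfap, Aldoc, Fgfr3 and Aldh1l1) and 3 lower (Sox9, Apoe and Clu), beside 28.7% and 21.8%. The calls of Aqp4, Slc1a3 and Gja1 had adjusted p-values of 0.0299 to 0.0424 and each was lost without TTX replicate 1, TTX replicate 2, untreated replicate 1 or untreated replicate 3. In Bic/4AP against TTX 5 were called higher and 6 lower, beside 23.7% and 53.1% of all genes, or 5 and 5 under all scalings, beside 19% and 30.8%. The 5 that were higher were Sox9, Gja1, Slc1a2, Glul and Slc1a3, though Slc1a3 lost its call without TTX replicate 3 (adjusted p = 0.054). The 5 that were lower under all scalings were Aldh1l1, Fgfr3, Apoe, Aldoc and Clu. No single order of the treatments therefore described the class. Its summed level was 296 to 318 RPKM with TTX, 298 to 355 untreated and 299 to 337 with Bic/4AP, and the groups overlapped. Without Apoe and Clu, a sum chosen after their values were seen, it was 211 to 236 with TTX, 176 to 184 untreated and 251 to 285 with Bic/4AP. Since the 2 genes left out were highest untreated, their removal lowered the untreated sum most.

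The promoters of Gfap and Aldh1l1 are shown because they carry CpG methylation that most expressed genes lack. Both run from 250 bases before to 50 bases after the start in RefSeq on GRCm38.p6, 5′ to 3′ along the gene, with CpG dinucleotides in capitals. Gfap is at chr11:102897151-102897450 on the minus strand and Aldh1l1 at chr6:90550543-90550842 on the plus strand.
Gfap: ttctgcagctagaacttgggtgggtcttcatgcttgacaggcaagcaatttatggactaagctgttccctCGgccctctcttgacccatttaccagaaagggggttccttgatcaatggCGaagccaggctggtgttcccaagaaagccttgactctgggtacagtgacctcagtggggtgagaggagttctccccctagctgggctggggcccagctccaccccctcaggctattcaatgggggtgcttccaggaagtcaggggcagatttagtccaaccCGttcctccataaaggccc
Aldh1l1: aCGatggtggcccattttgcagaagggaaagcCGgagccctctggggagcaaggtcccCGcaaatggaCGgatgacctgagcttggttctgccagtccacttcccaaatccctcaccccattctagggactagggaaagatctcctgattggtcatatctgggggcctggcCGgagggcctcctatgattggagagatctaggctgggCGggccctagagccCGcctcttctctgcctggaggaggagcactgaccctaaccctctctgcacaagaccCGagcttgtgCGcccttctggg
The 3 CpGs of the Gfap sequence lie at -179, -130 and 32 bases from the start. Their methylation fractions were 0.333, 0.893 and 0.4 with TTX, 0.31, 0.9 and 0.412 untreated and 0.0769, 0.556 and 0.25 with Bic/4AP. All 3 were lowest with Bic/4AP. Each treatment had 1 bisulfite library, coverage per CpG is not in the files, and no test was possible. Over the 40 CpGs from 1000 bases before to 500 after the start the Gfap fraction was 0.617 with TTX, 0.641 untreated and 0.637 with Bic/4AP, so the wider window did not share the low value. Aldh1l1 had 9 CpGs in the sequence. Over the 8 of them listed in all 3 libraries its mean fraction was 0.28 with TTX, 0.243 untreated and 0.309 with Bic/4AP. It was thus highest with Bic/4AP, unlike Gfap. Over the 33 CpGs of the wider window the Aldh1l1 fraction was 0.390, 0.397 and 0.384.

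Among progenitor markers, Vim and Sox2 stood highest with Bic/4AP and Nes with TTX. Under Bic/4AP against untreated libraries 4 of the 6 progenitor and cycling markers that passed the filter were called higher (Vim, Sox2, Nes and Fabp7) and 0 lower, beside 29.6% and 42.5% of all genes. Under all 3 scalings 3 were higher, all but Fabp7, beside 21.6%. Vim, the intermediate filament protein of radial glia and of many non-neuronal cells, had the highest level in the class. It was 68.1, 70.5 and 76.7 RPKM with TTX, 62.9, 59.1 and 54.6 untreated and 127, 128 and 145 with Bic/4AP. The 3 groups lay apart, and every Bic/4AP library was far above the other 6. The relative log2 change was 1.29 ± 0.0748 (SE) against untreated (adjusted p = 7.22e-08), and 0.59 and 0.56 after quantile and cyclic loess normalization. Against TTX it was 1.22 ± 0.0748 (adjusted p = 5.37e-07), but 0.13 after cyclic loess normalization, where the call was lost (adjusted p = 0.078).

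Sox2, a transcription factor that keeps progenitors undifferentiated and stays on in astrocytes, moved in parallel with Sox9 in the Bic/4AP libraries. It was 13.6, 13.6 and 13 RPKM with TTX, 9.76, 11.3 and 11.3 untreated and 23.9, 21.1 and 23.7 with Bic/4AP. The Bic/4AP libraries lay above all others. Its relative log2 change was 1.14 ± 0.08 (SE) against untreated (adjusted p = 3.42e-07) and 1.06 ± 0.08 against TTX (adjusted p = 4.53e-06), and both calls held under all scalings. The small rise with TTX against untreated (relative log2 change 0.16, adjusted p = 0.0073) did not hold, and its sign turned to -0.02 after cyclic loess normalization.

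Nes, which encodes nestin, was instead highest with TTX. It was 17.96, 16.99 and 13.98 RPKM with TTX, 3.77, 5.73 and 3.47 untreated and 6.28, 5.87 and 7.41 with Bic/4AP. The TTX libraries lay above the other 6, and Bic/4AP lay just above untreated. Nes rose by a relative log2 change of 1.59 ± 0.163 (SE) with TTX against untreated (adjusted p = 5.39e-06) and changed by -0.87 ± 0.163 with Bic/4AP against TTX (adjusted p = 2.87e-05). Its rise with Bic/4AP against untreated, at 0.64 ± 0.163 (adjusted p = 0.0131), was lost without untreated replicate 3 (adjusted p = 0.0534) or Bic/4AP replicate 3 (adjusted p = 0.0514).

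Fabp7, a fatty acid binding protein of radial glia, was 63.2 ± 2.11 RPKM with TTX, 63.6 ± 6.31 untreated and 91.1 ± 8.79 with Bic/4AP. Its higher value with Bic/4AP was called against both other groups on the deposited scale only (adjusted p = 0.000124 and 9.83e-05), and after cyclic loess normalization the log2 change was -0.02 against untreated and -0.12 against TTX. Hes1 and Hes5 encode repressors that act downstream of Notch. Hes1 was 4.03 ± 1.21 with TTX, 4.5 ± 0.52 untreated and 3.33 ± 0.0243 with Bic/4AP. It was called in no comparison on the deposited scale (adjusted p 0.107 to 0.464), while its sign in both Bic/4AP comparisons turned positive after both normalizations. With Bic/4AP against TTX it was called higher after quantile (log2 change 0.48, adjusted p = 0.00443) and cyclic loess normalization (0.51, adjusted p = 0.0054). Hes5 rested on 27, 13 and 10 reads with TTX, 2, 3 and 2 untreated and 2, 0 and 0 with Bic/4AP. Its TTX libraries lay above all others.

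The cycling markers were low everywhere. Mki67, the proliferation antigen Ki-67, was 0.730, 0.770 and 0.667 RPKM with TTX, 0.335, 0.468 and 0.242 untreated and 0.417, 0.368 and 0.435 with Bic/4AP. The TTX libraries, with 65 to 93 reads each, lay above the other 6, which held 14 to 47. Top2a, the DNA topoisomerase of dividing cells, was 2.02 ± 0.391 with TTX, 0.882 ± 0.304 untreated and 1.35 ± 0.307 with Bic/4AP. It was called higher with TTX than untreated (relative log2 change 0.56 ± 0.172, adjusted p = 0.00422), under all scalings, and was called in neither other comparison on the deposited scale (adjusted p = 0.111 and 0.0718). With Bic/4AP against untreated it was called higher after quantile (log2 change 0.92, adjusted p = 0.000199) and cyclic loess normalization (0.73, adjusted p = 0.000825).

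In TTX against untreated libraries 4 of the 6 tested progenitor and cycling markers were called higher and 0 lower, beside 40.6% and 23.5% of all genes, or 3 higher under all scalings (Nes, Top2a and Vim), beside 28.7%. In Bic/4AP against TTX 3 were higher and 1 lower, beside 23.7% and 53.1%, or 1 and 1 under all scalings (Sox2 and Nes), beside 19% and 30.8%. The summed level of the 8 genes was 170 to 175 RPKM with TTX, 137 to 152 untreated and 247 to 282 with Bic/4AP, and the groups lay apart. Vim and Fabp7 made up most of that sum, which is on the deposited scale only. With Bic/4AP against TTX their log2 changes were 0.15 and -0.10 after quantile normalization. After cyclic loess normalization they were 0.13 and -0.12, so the order of these 2 groups in the sum depends on scaling.

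The Vim promoter is shown as the contrast to Gfap, from chr2:13574061-13574360 on the plus strand in RefSeq on GRCm38.p6, with CpG dinucleotides in capitals.
Vim: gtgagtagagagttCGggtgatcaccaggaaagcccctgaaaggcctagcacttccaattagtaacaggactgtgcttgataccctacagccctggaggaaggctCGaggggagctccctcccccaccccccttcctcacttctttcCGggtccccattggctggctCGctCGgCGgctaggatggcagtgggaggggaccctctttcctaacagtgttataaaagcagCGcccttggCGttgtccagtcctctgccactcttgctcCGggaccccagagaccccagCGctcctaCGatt
The sequence holds 11 CpGs. The 8 of them listed in all 3 bisulfite libraries were at 0 in each. Over 69 CpGs of the wider window the fraction was 0.00537 with TTX, 0.0154 untreated and 0.012 with Bic/4AP. The other progenitor and cycling genes with a promoter entry were also low, from 0.00881 for Nes to 0.119 for Top2a as means of the 3 libraries.

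The oligodendrocyte lineage split by gene. In TTX against untreated libraries 5 of the 8 markers that passed the filter were called higher and 3 lower, beside 40.6% and 23.5% of all genes, or 4 and 3 under all 3 scalings, beside 28.7% and 21.8%. Cspg4, Olig1, Cnp and Olig2 were the 4 higher genes, and Mag, Pdgfra and Bcan the 3 lower. These counts include Cspg4, Mag and Pdgfra, whose difference was built into their passing, and with 1 RPKM asked for in 6 libraries 4 were higher and 1 lower. Olig1 and Olig2 encode transcription factors of the lineage, and OLIG2 is also found in some astrocytes and progenitors. Olig1 was 24.8, 24.9 and 21.0 RPKM with TTX, 4.66, 9.42 and 6.90 untreated and 12.1, 12.3 and 17.7 with Bic/4AP. The 3 groups lay apart, with TTX highest and untreated lowest. The relative log2 change was 1.53 ± 0.196 (SE) with TTX against untreated (adjusted p = 2.38e-05) and 1.06 ± 0.196 with Bic/4AP against untreated (adjusted p = 0.000994). The fall with Bic/4AP against TTX (adjusted p = 0.00506) was lost after quantile and cyclic loess normalization, at -0.26 and -0.02. Olig2 was 4.71 ± 0.663 with TTX, 1.4 ± 0.489 untreated and 2.19 ± 1.07 with Bic/4AP, and its rise with TTX held under all scalings (relative log2 change 1.13 ± 0.233, adjusted p = 0.000553). With Bic/4AP against untreated Olig2 was not called as deposited (adjusted p = 0.161). It was called higher there after quantile (log2 change 0.99, adjusted p = 0.00574) and cyclic loess normalization (0.83, adjusted p = 0.00691).

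Cspg4 and Pdgfra, the NG2 proteoglycan and the PDGF receptor alpha that together define oligodendrocyte precursors, were highest in different groups. Cspg4 was 5.01, 5.34 and 3.62 RPKM with TTX, 0.441, 0.959 and 0.433 untreated and 0.933, 0.839 and 0.830 with Bic/4AP. The TTX libraries lay above the other 6. Pdgfra was 0.222, 0.460 and 0.305 with TTX, 2.15, 2.11 and 2.16 untreated and 0.554, 0.353 and 0.340 with Bic/4AP. Here only the untreated libraries were high, and they held 82, 143 and 84 reads against 10 to 37 in the other 6. With TTX against untreated the relative log2 change was 1.68 ± 0.175 (SE) for Cspg4 and -1.37 ± 0.135 for Pdgfra. No p-value is given for these 2 differences, since each passed the filter only through the group where it was high. NG2 is also made by pericytes, and 7 of 11 tested vascular and mural genes were called higher in the same comparison and 0 lower, beside 40.6% and 23.5% of all genes. Their summed level over 15 genes was 72.9 to 88.1 RPKM with TTX, 48.0 to 62.3 untreated and 62.4 to 80.2 with Bic/4AP. Dcn, Fn1 and Col1a1 made up most of the TTX sum. The mural genes were mixed, with means higher with TTX than untreated for Pdgfrb (6.43 and 2.22) and Acta2 (8.93 and 4.08). Rgs5 was lower with TTX (7.97 and 11.1). The part of these genes in the Cspg4 result was not tested. With Bic/4AP against untreated Cspg4 was not called as deposited (adjusted p = 0.256), but it was called higher after quantile (log2 change 0.84, adjusted p = 0.000224) and cyclic loess normalization (0.65, adjusted p = 0.0016).

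Sox10 and Gpr17, a transcription factor and a receptor of the lineage, were near the limit of detection. Sox10 held 1, 0 and 0 reads with TTX, 9, 14 and 13 untreated and 0, 0 and 0 with Bic/4AP. Gpr17 held 0 reads in all 6 treated libraries and 3, 9 and 8 untreated. Bcan, the proteoglycan brevican, which precursors and astrocytes both make, was 7.602, 6.73 and 5.07 RPKM with TTX, 13.8, 13.1 and 17.2 untreated and 2.73, 2.52 and 2.91 with Bic/4AP. The 3 groups lay apart, with untreated highest and Bic/4AP lowest. Bcan fell by a relative log2 change of 1.95 ± 0.152 (SE) with Bic/4AP against untreated (adjusted p = 2.08e-07) and by 1.20 ± 0.152 with TTX against untreated (adjusted p = 8.7e-05), both under all scalings. Its fall with Bic/4AP against TTX was not called after quantile (log2 change -0.28) or cyclic loess normalization (-0.15).

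The myelin markers fell into 2 patterns. Mag and Mog encode glycoproteins of the mature myelin sheath. Mag was 0.0652, 0.0348 and 0.0426 RPKM with TTX, 1.39, 1.198 and 1.94 untreated and 0 in all 3 Bic/4AP libraries. These levels rest on 2, 1 and 1 reads with TTX, 19, 29 and 27 untreated and 0, 0 and 0 with Bic/4AP. Mog held 0, 1 and 1 reads with TTX, 4, 7 and 9 untreated and 1, 0 and 0 with Bic/4AP. Both genes were therefore detected above a few reads in the untreated libraries alone.

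Cnp and Mbp were far higher and were not highest untreated. Cnp encodes the myelin enzyme CNPase, and Mbp encodes myelin basic protein, though its locus also gives Golli transcripts that neurons make. Cnp was 18.0, 16.9 and 15.1 RPKM with TTX, 5.50, 6.63 and 5.20 untreated and 5.78, 8.05 and 7.40 with Bic/4AP. The TTX libraries lay above all others, and the other groups overlapped. Between Bic/4AP and untreated Cnp was not called as deposited (adjusted p = 0.111). It was called higher with Bic/4AP after quantile (log2 change 0.86, adjusted p = 3.16e-05) and cyclic loess normalization (0.75, adjusted p = 9.6e-05). Its relative log2 change was 1.25 ± 0.132 (SE) with TTX against untreated (adjusted p = 5.64e-06) and -0.80 ± 0.132 with Bic/4AP against TTX (adjusted p = 7.67e-06). Mbp was 13.04, 12.97 and 11.3 RPKM with TTX, 8.88, 9.48 and 8.53 untreated and 4.38, 4.41 and 3.67 with Bic/4AP. The 3 groups lay apart in that order. Mbp fell by a relative log2 change of 0.83 ± 0.111 with Bic/4AP against untreated (adjusted p = 9.56e-06) and by 1.05 ± 0.111 against TTX (adjusted p = 3.56e-07), under all scalings. Its rise with TTX against untreated (adjusted p = 0.00509) was lost after cyclic loess normalization, at 0.10.

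Of the 8 tested lineage markers, 1 was called higher with Bic/4AP against untreated (Olig1) and 4 lower (Bcan, Mag, Pdgfra and Mbp), beside 29.6% and 42.5% of all genes, and the counts under all scalings were also 1 and 4, beside 21.6% and 27.8%. The 4 include Mag and Pdgfra, and with 1 RPKM asked for in 6 libraries 2 were lower. After quantile and after cyclic loess normalization alone, 4 were called higher in each. Against TTX, 0 were higher with Bic/4AP and 6 lower, beside 23.7% and 53.1%, or 3 lower under all scalings (Cspg4, Mbp and Cnp), beside 30.8%. The 6 and the 3 include Cspg4, whose difference from TTX was built into its passing. Pdgfra and Mag were not called there (adjusted p = 0.547 and 0.669). The summed level of the 11 genes was 60.5 to 73.9 RPKM with TTX, 39.4 to 45.8 untreated and 28.3 to 36.3 with Bic/4AP, and the groups lay apart. Olig1, Cnp, Mbp and Bcan made up most of that sum. Pdgfra, Sox10, Gpr17, Mag and Mog, at group means of 2.14 RPKM or less, were highest untreated, as was Bcan. Olig2 and Cspg4 were highest with TTX, as were Olig1, Cnp and Mbp.

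**Figure D2:**
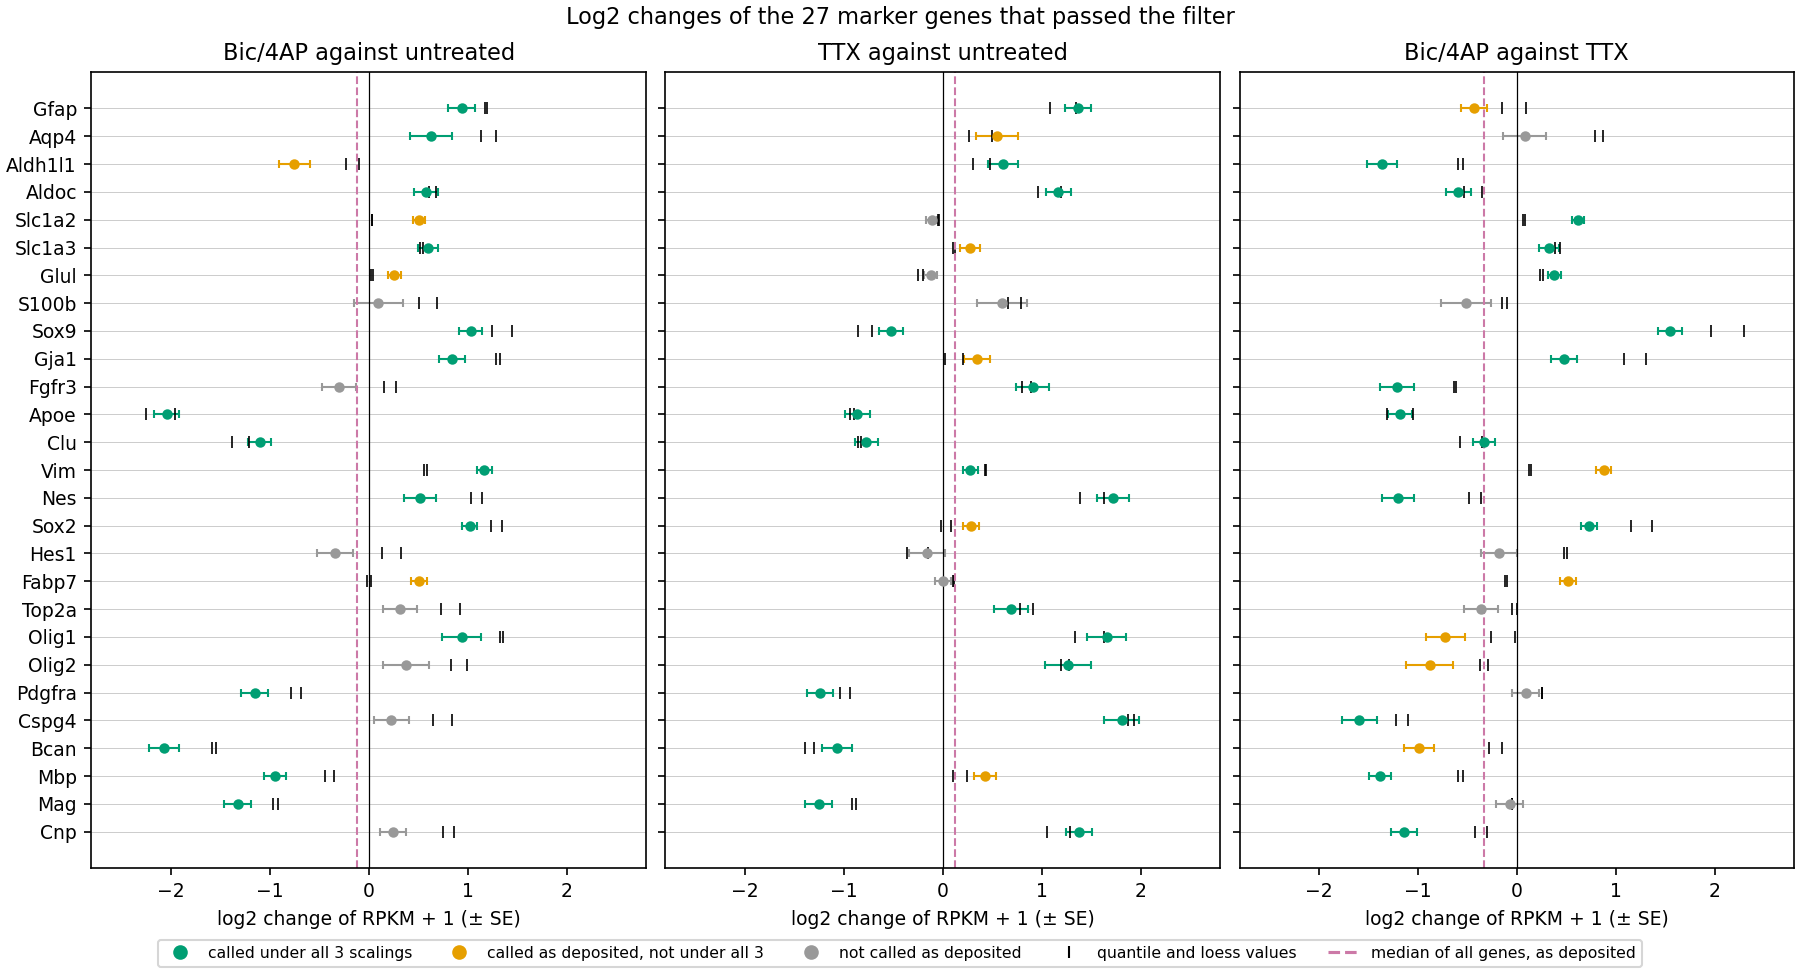
Log2 change of RPKM + 1 on the deposited scale for the 27 tested markers, with SE bars, in 3 panels by comparison; green points were called under all 3 scalings, orange points as deposited but not under all 3, and grey points not as deposited, black ticks give the values after quantile and cyclic loess normalization, and the dashed line is the median of all genes. Cspg4, Nes and Olig1 are the 3 largest rises with TTX, and Bcan and Apoe the 2 largest falls with Bic/4AP against untreated.

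The Mog promoter is shown as a myelin promoter at high methylation, from chr17:37023349-37023648 on the minus strand in RefSeq on GRCm38.p6, with CpG dinucleotides in capitals.
Mog: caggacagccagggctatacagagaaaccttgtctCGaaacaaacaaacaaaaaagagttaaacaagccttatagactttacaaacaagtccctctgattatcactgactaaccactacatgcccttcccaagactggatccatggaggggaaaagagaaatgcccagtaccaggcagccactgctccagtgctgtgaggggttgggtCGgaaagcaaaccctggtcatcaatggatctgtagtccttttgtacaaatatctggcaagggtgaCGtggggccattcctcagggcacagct
Its 3 CpGs lie at -214, -41 and 24 bases from the start. Their fractions were 0.938, 0.842 and 0.828 with TTX, 0.8, 1 and 0.75 untreated and 0.778, 0.917 and 0.696 with Bic/4AP. None of the 9 values was below 0.696. Over 13 CpGs of the wider window the fraction was 0.911, 0.860 and 0.861. Mag, averaged over the windows of its 3 RefSeq starts, was 0.814, 0.835 and 0.829. The other lineage genes with an entry were lower, with Cspg4 at 0.243 to 0.275, Cnp at 0.0704 to 0.083 and Olig2, Bcan and Pdgfra at 0.0387 or less in each library.

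Across classes, 24 of the 32 genes matched a promoter entry. Aqp4, Sox9, Clu, Hes1, Olig1, Sox10, Mbp and Gpr17 did not. The median untreated fraction in the window of 1000 bases before to 500 after the start was 0.188 for 10 astrocyte genes, 0.0493 for 7 progenitor and cycling genes and 0.0819 for 7 lineage genes, beside 0.0532 for all 10566 tested genes with at least 5 CpGs. Fractions of 0.5 or more were found for Slc1a2, Mog, Mag, S100b and Gfap, which is 5 of 24 genes or 20.8%, beside 26.9% of all 15174 genes with an entry and at least 5 CpGs and 6.57% of those tested. Of the 24, Mog, Hes5 and Mki67 were not tested. Among genes with a mean of at least 10 RPKM, a limit chosen after the data were seen, Gfap and Slc1a2 were 2 of 9 markers at 0.5 or more, beside 1.78% of 6624 genes. The Slc1a2 start in the table, at position 102706438 of chromosome 2, lies inside the gene, which begins at 102658239, so its window is not the first promoter. The largest range of a window over the 3 bisulfite libraries was 0.0709, in S100b, which has 11 CpGs. Those libraries come from C57BL/6 cultures and cannot be matched to the RNA libraries.

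**Figure D3:**
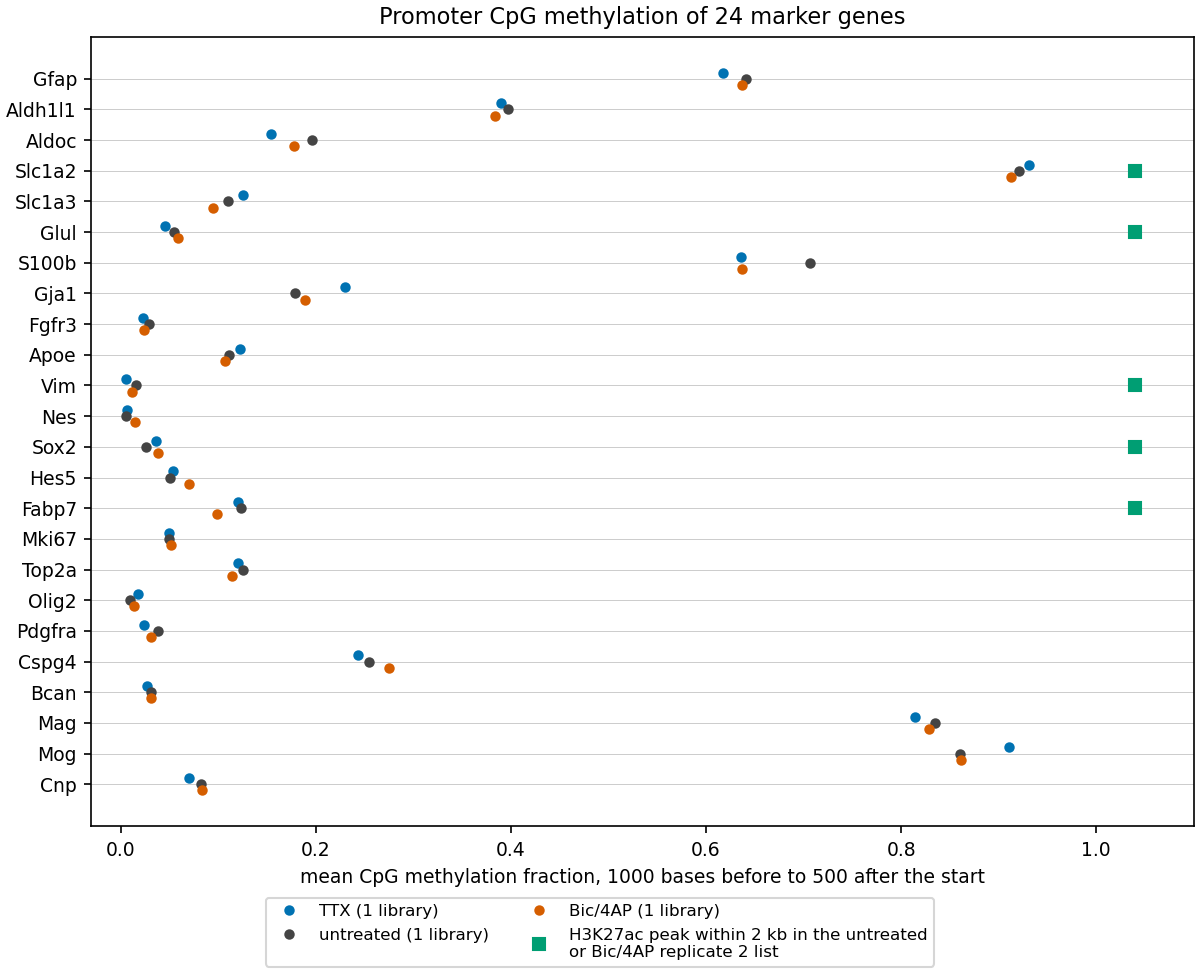
Mean CpG methylation fraction from 1000 bases before to 500 bases after the RefSeq start for the 24 markers with a promoter entry, 1 point per bisulfite library; green squares mark genes with an H3K27ac peak within 2000 bases of a start in the second untreated or second Bic/4AP list. Slc1a2, Mog, Mag, S100b and Gfap are above 0.5 in all 3 libraries, and Vim, Nes and Olig2 are the lowest.

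Peaks of H3K27ac, a mark of active promoters and enhancers, were found at a minority of the 24 promoters. Within 2000 bases of a start, 5 of 24 genes had a peak in the second untreated list (Slc1a2, Glul, Vim, Sox2 and Fabp7), beside 45.5% of all tested genes. In the second Bic/4AP list 4 had one (the same genes without Glul), beside 58.3%. The first untreated and first Bic/4AP lists, with 4846 and 7721 peaks against 49701 and 55035 in the second ones, held 0 at these promoters, beside 15.7% and 33.3% of all tested genes. Among the 9 markers at a mean of at least 10 RPKM, 5 had a promoter peak in the second untreated list, or 55.6% beside 58.8% of 6651 genes at that level, and 4 in the second Bic/4AP list, or 44.4% beside 74.7%. The 4 of these markers with no promoter peak in any list were Gfap, Aldoc, Slc1a3 and Apoe. The H3K4me1 lists held 0 at the 24 promoters, beside 5.55% and 5.39% of tested genes. Counted over the gene with 5000 bases on either side, Slc1a2 had 18 H3K27ac peaks in the second untreated list and 15 in the second Bic/4AP list, Mbp 7 and 7, and Sox2 7 and 4. Gfap had 2 and 0 by that count, and Sox9 0 and 1. The peaks are the authors' calls per sample, and lists of such different length give no measure of change.

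Other genes of the same cell types gave the surroundings. Their log2 changes are as deposited, not relative to the median gene. The shares of all genes called higher and lower, to be read beside each count, were 29.6% and 42.5% with Bic/4AP against untreated, 40.6% and 23.5% with TTX against untreated and 23.7% and 53.1% with Bic/4AP against TTX. Of 33 other astrocyte genes tested, 19 were called higher and 10 lower with Bic/4AP against untreated, 16 and 9 with TTX against untreated and 12 and 11 with Bic/4AP against TTX. Atp1b2, a sodium pump subunit, rose with Bic/4AP against both groups (log2 changes 0.65 ± 0.0494 and 0.74 ± 0.0494, SE), and Slc7a10, an amino acid transporter, changed by -3.13 with Bic/4AP and by -3.11 with TTX against untreated. Slc7a10 passed the filter through the untreated libraries alone, so that fall was built into its passing. Of 11 reactive astrocyte genes, 7 were higher and 1 lower with Bic/4AP against untreated and 6 and 0 with TTX, among them Stat3, a cytokine response factor, at 0.74 and 0.57. Of 20 other progenitor genes, 12 and 5 changed with Bic/4AP and 10 and 4 with TTX against untreated. Emx2, a cortical patterning factor, rose by 1.69 with Bic/4AP, and Id1, a BMP target gene, fell by 2.54 with Bic/4AP and by 1.52 with TTX.

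Of 14 other cycling genes, 3 were called higher and 3 lower with Bic/4AP against untreated (10 and 0 after quantile and 9 and 0 after cyclic loess normalization), 6 and 1 with TTX against untreated, and 2 and 7 with Bic/4AP against TTX (4 and 3 after either normalization). The 14 include Cdc20, which reached 1 RPKM in the TTX libraries alone, so its difference from them was built into its passing the filter. Mcm5 and Ccnb1 reached 1 RPKM in treated libraries alone, so a rise against untreated was built into their passing. Mcm2, a replication licensing factor, rose by 0.93 with TTX against untreated and fell by 1.41 with Bic/4AP against TTX. Of 14 other oligodendrocyte genes, 2 were higher and 8 lower with Bic/4AP and 1 and 9 with TTX against untreated. The Bic/4AP counts became 5 and 4 after either normalization. Myrf, the myelin gene regulator, changed by -1.78 and -1.69, and Mobp, a myelin structural gene, by -1.08 with TTX, but like Mag both reached 1 RPKM in the untreated libraries alone, so a fall was built into their passing the filter. In Bic/4AP against TTX, 4 of the 14 oligodendrocyte genes were higher and 4 lower as deposited, but 9 and 1 after either normalization. These 14 include Matn4, which also reached 1 RPKM in the untreated libraries alone, so a fall against untreated was built in. Microglia genes were called higher in 5 of 10 cases and lower in 1 (Csf1r) with Bic/4AP against untreated. Their summed level over 14 genes was 53.1 to 66.4 RPKM with Bic/4AP, 25 to 35.1 untreated and 38.1 to 44.4 with TTX. Cd68 (means of 25.3 with Bic/4AP and 7.6 untreated) and Tyrobp (11 and 2.55) made up most of the difference between Bic/4AP and untreated. The 10 include Ptprc, which reached 1 RPKM in the Bic/4AP libraries alone, so a rise with Bic/4AP was built into its passing. Trem2 reached 1 RPKM in treated libraries alone, so a rise against untreated was built in there too. Of 16 neuron genes, 14 were higher and 1 lower with Bic/4AP against untreated as deposited, but 5 and 11 after cyclic loess normalization, a change of balance that the high-level genes Slc1a2, Glul and Fabp7 shared. The summed neuron level was 988 to 1092 RPKM with TTX, 1036 to 1225 untreated and 1592 to 1629 with Bic/4AP.

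**Figure D4:**
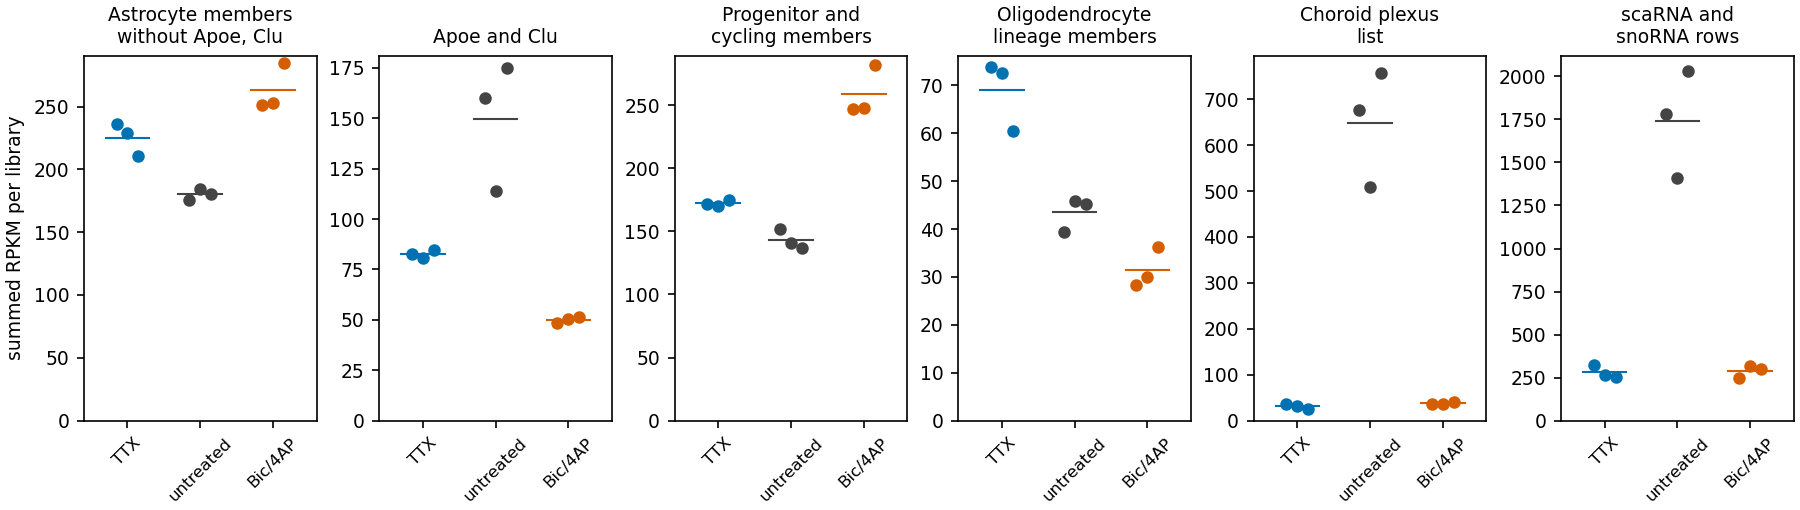
Summed RPKM per library for astrocyte markers without Apoe and Clu, for Apoe with Clu, for progenitor and cycling markers, for oligodendrocyte lineage markers, for 18 choroid plexus genes and for 119 small RNA rows; points are libraries, lines are means of 3, and every axis starts at 0. The untreated libraries are lowest for the progenitor sum and for the astrocyte sum, from which 2 genes highest untreated were left out after their values were seen (the sum of all 13 overlapped between groups, at means of 308, 329 and 313 with TTX, untreated and Bic/4AP), between TTX and Bic/4AP for the lineage sum, and highest for Apoe with Clu, the choroid plexus genes and the small RNA rows.

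Over all 27 tested markers, 12 had their highest mean with TTX, 6 untreated and 9 with Bic/4AP, which is 44.4%, 22.2% and 33.3%, beside 46.6%, 25.3% and 28.1% of all tested genes. The lowest mean was untreated for 14, or 51.9%, beside 28.3% of all tested genes. Of the 27, 13 were called higher and 7 lower in Bic/4AP against untreated, beside 29.6% higher, 42.5% lower and 72.1% in either direction of all genes. In TTX against untreated the counts were 16 and 6, beside 40.6%, 23.5% and 64.1%. In Bic/4AP against TTX they were 8 and 13, beside 23.7%, 53.1% and 76.8%. Under all 3 scalings the counts were 10 and 6, beside 21.6%, 27.8% and 49.4%, then 11 and 6, beside 28.7%, 21.8% and 50.5%, then 6 and 9, beside 19%, 30.8% and 49.8%. In the same order of comparisons, the libraries of the 2 groups did not overlap for 13 higher and 8 lower genes of the 27, beside 71.3% of all genes, for 13 and 6, beside 69.6%, and for 8 and 14, beside 81.5%. The 27 include Cspg4, Pdgfra and Mag, which passed the filter only through the group where they were high. By name, and grouped after their values were seen, Gfap, Aldoc, Nes, Olig1, Cspg4 and Cnp were highest with TTX, Sox9, Sox2, Vim and Gja1 with Bic/4AP, and Apoe, Clu, Bcan, Pdgfra and Mag untreated.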

How the data were processed

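Expression, methylation and peak files of 18 samples were used, grouped by the sample labels, and the input sample was not analysed here. Per the labels' protocols, directional libraries were prepared from RNA bound to poly(A) beads, and the authors deposited RPKM for each gene in each library. No source used here states the strand setting of the counting, so a gene cannot be separated from an antisense or overlapping partner. Per the submitters' processing notes the tools were MACS 1.4.1, SAMtools 0.1.19, Bowtie2 2.2.4 and TopHat, with build mm10. The deposited methylation values are a fraction per CpG from bisulfite libraries made by adaptor tagging after conversion, without coverage, so their precision is unknown. The peak lists hold the authors' score per peak, per sample.

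Of 24062 lines per expression file, 4 with a repeated name were left out, and 14801 genes were tested in a single limma fit of the 9 libraries by treatment (limma 3.58.1, R 4.3.3, trend option, Benjamini-Hochberg adjustment) on log2(RPKM + 1), a pseudocount that shrinks changes at low levels. Alternatives were quantile and cyclic loess normalization, a pseudocount of 0.1, no filter and a filter in 6 libraries, the replicate block and each library left out. The count under all 3 scalings together was added after the data were seen. An exact permutation test of 3 against 3 libraries cannot go below 0.1 and was not used. Reads were recovered as the smallest whole numbers whose ratios between libraries fit the RPKM values, and intervals were not computed from them. The code was tested on simulated data. Promoter sequences and starts came from RefSeq (GRCm38.p6, the assembly of mm10), and genes with several starts were averaged over their windows. A peak counted where it overlapped the window of 2000 bases on either side of a start by at least 1 base.

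The 32 genes, the other gene lists and the tests were chosen with earlier results of these data known, so no test was made over a list. All 32 are named, and from each other list the genes with the smallest p are named as examples.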

Additional observations from a re-analysis of the deposited data

How the results depend on the processing

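Among the 32 genes, some counts and log2 changes moved with the scaling or the filter. With Bic/4AP against untreated, 4 lineage markers were called higher after quantile and 4 after cyclic loess normalization, and 7 were called lower with no filter but 2 with the filter in 6 libraries. Over all genes 4114 were lower under all 3 scalings. With TTX against untreated, 4 astrocyte markers were higher under all scalings, 1 progenitor marker was lower after cyclic loess normalization, 6 lineage markers were lower with no filter and 1 with the filter in 6 libraries, and 5241 of all genes were lower after cyclic loess normalization. With Bic/4AP against TTX, 1 progenitor marker was higher under all scalings, 3 were lower with no filter, 3 lineage markers were lower after quantile, after cyclic loess and under all scalings, 4564 of all genes were lower under all scalings, and genes of the other lists called lower numbered 30 after cyclic loess normalization and 22 under all scalings. Log2 changes turned sign after quantile or cyclic loess normalization as follows. With Bic/4AP against untreated, Fgfr3 became 0.28 and 0.16, Hes1 0.33 and 0.14, and Fabp7 -0.02 after loess. With TTX against untreated, Sox2 became -0.02 after loess and Fabp7 0.12 and 0.10. With Bic/4AP against TTX, Gfap became 0.09 after loess, Hes1 0.48 and 0.51, Fabp7 -0.10 and -0.12, and Top2a 0.00 after quantile. The cause was not tested, except that fewer genes pass a stricter filter.

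With 1 library left out, astrocyte markers called higher with TTX against untreated ranged from 4 to 8 and lower from 3 to 5. Lineage markers higher with Bic/4AP against untreated ranged from 1 to 2, progenitor markers lower there from 0 to 1, and progenitor markers lower with Bic/4AP against TTX from 1 to 3. Log2 changes not called as deposited crossed 0 for Aqp4 with Bic/4AP against TTX (-0.12 to 0.21), Fabp7 and Hes1 with TTX against untreated (-0.06 to 0.07 and -0.31 to 0.05) and S100b with Bic/4AP against untreated (-0.07 to 0.30). With all libraries, Aqp4 was called higher with Bic/4AP than with TTX after quantile (0.79, adjusted p = 0.00137) and cyclic loess normalization (0.87, adjusted p = 0.00113). In the window of 250 bases before to 50 after the start, median methylation of astrocyte genes was 0.048 with TTX, 0.0476 untreated and 0.0566 with Bic/4AP, and of lineage genes with TTX 0.0118. These medians rest on the 6 astrocyte and 5 lineage genes with at least 5 CpGs there, beside 10 and 7 in the wider window. Gfap, S100b, Slc1a2, Slc1a3, Mog and Pdgfra dropped out, so the medians of the 2 windows cover different genes. Of members with a peak in the second untreated H3K27ac list, 2 had one in the upper 50% of scores.

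Deviations of the libraries from their group means correlated at -0.173 to 0.0435 between same-numbered libraries and at -0.129 to 0.208 between others. With 3 libraries per group, these values cannot show whether libraries of the same number shared a culture. With the replicate block, 4359 genes were higher and 6257 lower with Bic/4AP against untreated, 5960 and 3385 with TTX against untreated, and 3474 and 7841 with Bic/4AP against TTX. Of 558 log2 changes of markers under these settings other than leaving out a library, 500 kept sign and side of the threshold. The Bic/4AP libraries, at 4.34 to 4.59 M reads, held 2 reads or fewer each of Sox10, Gpr17, Mag, Mog and Hes5. The TTX libraries, at 9.68 to 12.6 M, also held 2 or fewer of all these but Hes5. The part of depth in these low values was not tested.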
